A study of Mus musculus with 2669 samples.

Results

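Cells of the ventral part of the medial ganglionic eminence (vMGE) were compared with cells of its dorsal part (dMGE) in CD1 mouse embryos at embryonic day E14.5. The comparison used 4 neighbouring pairs of Fluidigm C1 chips, vMGE chip 91 with dMGE chip 90, 93 with 92, 96 with 97 and 98 with 99. Cells with at least 1000 detected genes and 50000 read counts were kept, which left 554 of the 560 cells on these 8 chips, out of 2650 kept cells on the 37 chips of the whole series. The vMGE chips held 74, 81, 63 and 71 cells, and the dMGE chips 75, 68, 64 and 58 cells. No transgene or treatment is labelled for either group, and the labels of the 2 groups differ in the dissected region alone. The labels name no embryos or litters, so a chip may pool several embryos, and p-values measure how chips vary, which may in part be technical. The labels do not say that neighbouring chips share a litter or a day, and each chip was read on 1 sequencing lane. By the lane numbers in the cell names, vMGE chips 91, 93, 96 and 98 were on lanes 3, 5, 6 and 6, and dMGE chips 90, 92, 97 and 99 on lanes 2, 4, 7 and 7. The lane number thus differed with region in every pair, and lane and region cannot be told apart.

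The medial ganglionic eminence is the embryonic ventral forebrain zone from which many cortical interneurons and the striatal and basal forebrain cholinergic neurons arise. Its dividing progenitors express the transcription factor Nkx2-1, and their daughters switch on Lhx6, a regulator of interneuron identity, or Lhx8, a regulator of cholinergic identity. The dorsal part is known for progenitors that also express Nr2f1 and Nr2f2 (the nuclear receptors COUP-TFI and COUP-TFII) and for a bias toward somatostatin interneurons, whereas the ventral part is known for parvalbumin interneurons and cholinergic cells.

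The region labels were first set against the genes of this tissue. Nkx2-1 had 115.9, 214.05, 174 and 108.9 CPM (read counts scaled to the library total, after scaling between chips) on vMGE chips 91, 93, 96 and 98, against 140.8, 118.1, 254.9 and 190 CPM on dMGE chips 90, 92, 97 and 99. All values below follow this chip order. Lhx6 had 529, 562, 539 and 1081 CPM on the vMGE chips, against 282.7, 750, 971 and 887 CPM on the dMGE chips. Both genes were present on every chip and their ranges overlapped, with log2 fold changes (vMGE over dMGE) of -0.21 ± 0.41 for Nkx2-1 and -0.03 ± 0.29 for Lhx6 (± SE). The sign of both depended on the processing: thinning every cell to 50000 counts gave 0.01 for Nkx2-1, and leaving out cells above 5% mitochondrial counts gave 0.10 for Lhx6. Summed markers of pallial excitatory neurons reached 0.0506 to 6.36 CPM on vMGE chips and 0.0976 to 134.8 CPM on dMGE chips, where chip 97 alone exceeded 1 CPM.

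The number of detected genes per cell moved with region, while counts per cell and the mitochondrial share had no common direction. The median cell had 555548 ± 77506 counts on vMGE chips and 546958 ± 269623 counts on dMGE chips (mean ± SD of 4 chip medians, higher in vMGE in 3 of 4 pairs, exact p = 1). The median mitochondrial share was 4.29% ± 1.71 on vMGE chips and 3.56% ± 1.40 on dMGE chips, higher in vMGE in 2 of 4 pairs (exact p = 0.875). The median cell had 3312.5, 3081, 2493 and 3050 detected genes on the vMGE chips, against 2380, 2651.5, 2176 and 2505 on the dMGE chips, so vMGE was higher in 4 of 4 pairs. After every cell was thinned to 50000 counts the medians were 2323, 2184, 1541 and 1633 genes on the vMGE chips, against 1571, 2019.5, 1405.5 and 1354 genes on the dMGE chips. Pairs were compared with a two-sided exact sign-flip permutation test, for which 0.13 is the smallest p that 4 pairs allow, and both measures reached it. Summed red blood cell genes were also higher in vMGE in 4 of 4 pairs, at 33.6 to 175 CPM on vMGE chips and 9.17 to 53.1 CPM on dMGE chips. Among them the adult beta globin Hbb-bt had 4.69, 15.5, 20.5 and 40.2 CPM on the vMGE chips, against 0.0347, 0.723, 2.98 and 2.60 CPM on the dMGE chips. A thinned count of it was found in 41 vMGE cells (14.2%), against 12 dMGE cells (4.53%). Summed microglial genes reached 0.976 to 265.1 CPM on vMGE chips and 0.0711 to 1.005 CPM on dMGE chips. Summed immediate early and dissociation genes were lower in vMGE in 4 of 4 pairs. They reached 42.9 to 1532 CPM on vMGE chips and 97.4 to 1781 CPM on dMGE chips. The part of these differences in the results below was not tested.

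Cells were then placed in ranges by marker counts. A cell fell in the dividing range with at least 5 of 25 G2 and M phase genes, and in the neuron range with at least 5 of 20 neuronal genes and at most 2 G2 and M phase and 2 S phase genes, a marker needing at least 3 of 50000 thinned counts. These are ranges and not cell types, with 59 cells at 4 or 5 of the G2 and M phase genes and 30 cells at 4 or 5 neuronal genes. The dividing range held 50, 46, 25 and 36 cells of the vMGE chips, against 37, 34, 26 and 18 cells of the dMGE chips. The neuron range held 13, 18, 14 and 14 cells of the vMGE chips, against 16, 26, 14 and 22 cells of the dMGE chips, and the other cells were in neither. Dividing cells made up 67.6%, 56.8%, 39.7% and 50.7% of the vMGE chips, against 49.3%, 50%, 40.6% and 31.03% of the dMGE chips. Neuron range cells made up 17.6%, 22.2%, 22.2% and 19.7% of the vMGE chips, against 21.3%, 38.2%, 21.9% and 37.9% of the dMGE chips. The dividing share was higher in vMGE in 3 of 4 pairs and the neuron share lower in 3 of 4, with pair differences of 10.9 ± 9.80 and -9.41 ± 9.09 percentage points (mean ± SD). Neither passed the exact sign-flip test (p = 0.25 for each, adjusted p = 0.333 over 8 shares). Both shares rest on detected markers, and vMGE cells had more detected genes; the part of this in the shares was not tested.

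The share of cells with a detected count was then taken for single region genes. Cells with a thinned count of Nr2f1 made up 20.3%, 3.70%, 20.6% and 28.2% of the vMGE chips, against 32%, 23.5%, 26.6% and 36.2% of the dMGE chips. For Nr2f2 the shares were 9.46%, 6.17%, 7.94% and 21.1% on the vMGE chips, against 17.3%, 25%, 18.8% and 31.03% on the dMGE chips. Both receptors were thus detected in fewer vMGE cells in 4 of 4 pairs, by 11.4 ± 6.12 and 11.9 ± 4.81 percentage points. Lhx8 was detected in 31.1%, 20.99%, 11.1% and 8.45% of the cells of the vMGE chips, against 9.33%, 11.8%, 7.81% and 1.72% of the cells of the dMGE chips. It was detected in more vMGE cells in 4 of 4 pairs, by 10.2 ± 8.04 percentage points. Thinned vMGE cells also had more detected genes in 4 of 4 pairs, and the part of this in the shares of single genes was not tested.

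Each of these shares reached the smallest p that 4 pairs allow (exact sign-flip p = 0.13, adjusted p = 0.25 over 8 shares), so none passed the threshold. Nkx2-1 was likewise detected in more vMGE cells in 4 of 4 pairs, at 58.1%, 62.96%, 44.4% and 45.1% on the vMGE chips, against 37.3%, 45.6%, 31.3% and 17.2% on the dMGE chips. Its CPM did not follow its share, so no order is read from it. Lhx6 was detected in 53.5% ± 7.23 of vMGE cells and 56.8% ± 13.1 of dMGE cells (SD, n = 4 chips each), higher in 2 pairs and lower in 2. As a measure of background, cells of 5 chips from the caudal ganglionic eminence at the same age were thinned alike. Lhx8 was detected in 0% to 1.22% of their cells and Nkx2-1 in 3.57% to 37.1%, a range that takes in 2 of the 4 dMGE values of Nkx2-1. Nr2f1 was detected in 44.05% to 80% of them and Nr2f2 in 25% to 44.7%. The median thinned cell of those chips had 863.5 to 3149 genes.

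**Figure D1:**
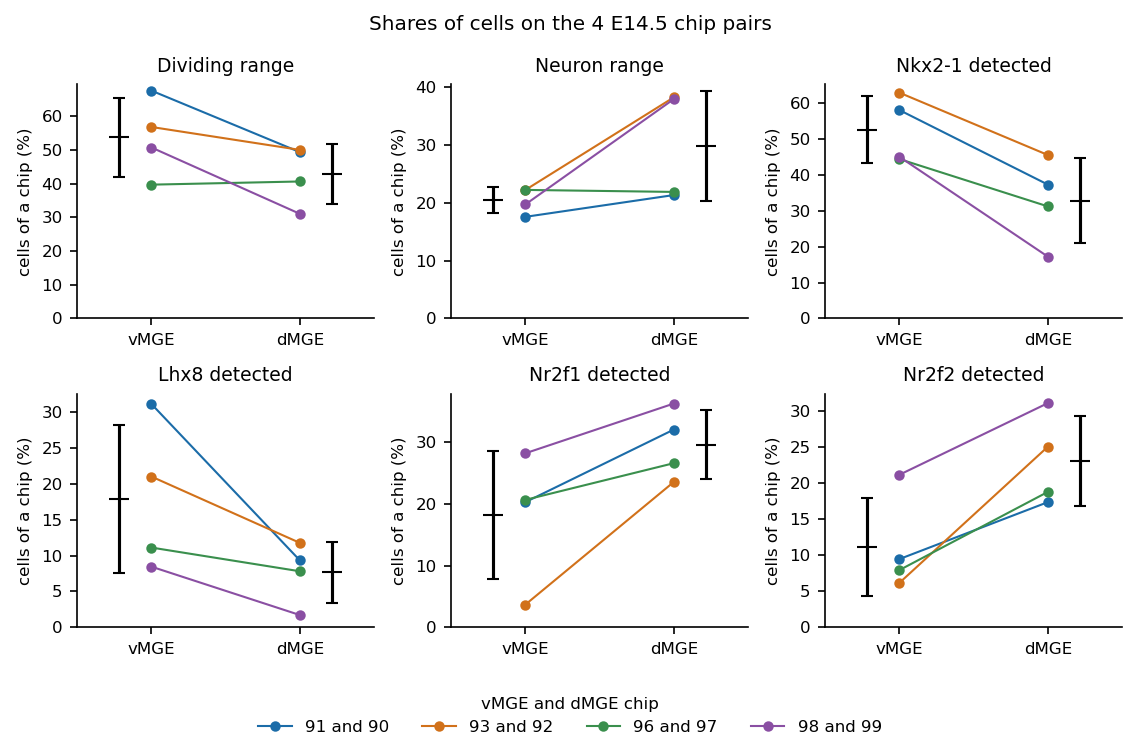
Percentage of a chip's cells in the dividing and neuron ranges, and with at least 1 of 50000 thinned counts of Nkx2-1, Lhx8, Nr2f1 or Nr2f2, on vMGE chips (left) and dMGE chips (right). Lines join the 2 chips of a pair and black bars give the mean and SD of the 4 chips. Lhx8 and Nkx2-1 were detected in more vMGE cells, and Nr2f1 and Nr2f2 in fewer, in 4 of 4 pairs.

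Across all cells of a chip, no gene differed between the regions past the threshold. Counts were summed per chip and fitted with edgeR's quasi-likelihood test with the pair as a block. Of 11999 genes tested, 0 had a Benjamini-Hochberg adjusted p under 0.05 (0%). At an unadjusted p under 0.05 there were 946 genes, 3.96% of those tested being higher in vMGE and 3.93% lower. Of all genes tested, 7% were higher in vMGE in 4 of 4 pairs and 6.05% were lower in 4 of 4. DESeq2's Wald test on the same design called 2.69% of genes, more of them higher than lower in vMGE, while limma on mean CPM per cell called 0. The fold changes of the groups of genes described next are shown in the plot of list members.

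Of the dorsal MGE list, 9 of 12 genes had enough counts to be tested. None passed, 2 were lower at an unadjusted p under 0.05 (Nr2f1 and Hhip), and the list's median log2 fold change was -0.73, against -0.02 for all genes tested. Nr2f1 had 27.5, 5.59, 71.7 and 69.7 CPM on the vMGE chips, against 135.2, 29.3, 120.8 and 176 CPM on the dMGE chips. It was lower in vMGE in 4 of 4 pairs, though the ranges overlapped because chips 93 and 92 were both low. Its log2 fold change was -1.51 ± 0.52 (edgeR, p = 0.0153, adjusted p = 0.608), and DESeq2 placed it past the threshold at an adjusted p of 0.0300. Nr2f2 had 6.11, 19.5, 12.3 and 175 CPM on the vMGE chips, against 64.99, 46.3, 43.7 and 78.1 CPM on the dMGE chips. Chip 98 held the highest value of all 8, and 5 cells gave 50.3% of the gene's counts. Its log2 fold change of -0.73 ± 0.76 was smaller than its error.

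The remaining dorsal genes were low or mixed. Pax6, a regulator of dorsal forebrain progenitors, had 2.92, 1.15, 1.38 and 1.42 CPM on the vMGE chips, against 6.38, 2.33, 4.89 and 5.37 CPM on the dMGE chips (log2 fold change -1.49 ± 0.85). Pax6 was lower in vMGE in 4 of 4 pairs at a level of a few CPM. Tcf7l2, a transcription factor of Wnt signalling, had 40.1, 36.5, 36.04 and 3.79 CPM on the vMGE chips, against 146.999, 62.9, 42.6 and 8.25 CPM on the dMGE chips. Hhip, which binds Hedgehog ligands, reached an unadjusted p of 0.0369 from few cells: 5 cells gave 91.1% of its counts. Ptch1, the Hedgehog receptor, went the other way at 24.6, 31.6, 12.3 and 128.2 CPM on the vMGE chips, against 36.9, 5.42, 8.03 and 24.1 CPM on the dMGE chips. Of the 7 tested genes of the Hedgehog pathway, 5 were above 0 and 2 below.

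Of the ventral and cholinergic list, 8 of 20 genes were tested, none passed, and the median log2 fold change was 0.32. The 1 member with an unadjusted p under 0.05, the zinc finger gene Zic4, was lower in vMGE and took 97.5% of its counts from 5 cells. Lhx8 had 39.95, 32.1, 62.8 and 24.9 CPM on the vMGE chips, against 10.6, 32.4, 42.3 and 20.2 CPM on the dMGE chips (log2 fold change 0.59 ± 0.63). The ranges overlapped and chips 93 and 92 were level. Zic1, a zinc finger factor of septal and preoptic progenitors, had a thinned count in 16 vMGE cells (5.54%), against 2 dMGE cells (0.755%). Its levels were 11.6, 0.606, 1.85 and 10.4 CPM on the vMGE chips, against 4.71, 0, 0.201 and 0.0183 CPM on the dMGE chips. Counts of Zic1 came mostly from few cells, with 76.1% of them from 5 cells.

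By count, though not by share, genes of the MGE interneuron lineage led the 21 lists in members at an unadjusted p under 0.05. The shares of the pericyte and fibroblast list (2 of 2 tested genes) and the erythroid list (2 of 5) were larger. Of 18 MGE lineage genes 17 were tested and none passed, 5 were above 0 and 12 below, and the median log2 fold change was -0.21. Of these, 5 had an unadjusted p under 0.05 and all 5 were lower in vMGE, against a background of 3.93% of genes lower at that p. Of those 5, Zeb2, Erbb4, Maf and Mef2c averaged above 20 CPM in dMGE, and Rpp25 averaged 1.37 CPM. Zeb2, a repressor needed for interneuron migration, had 214.02, 528, 343.02 and 460 CPM on the vMGE chips, against 433.6, 756, 748 and 745 CPM on the dMGE chips. It was lower in vMGE in 4 of 4 pairs, and dMGE chip 90 stood below the other dMGE chips (log2 fold change -0.83 ± 0.24, edgeR p = 0.00588, adjusted p = 0.608).

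Erbb4, the neuregulin receptor of migrating interneurons, had 25.5, 81.7, 81.96 and 115.3 CPM on the vMGE chips, against 175, 300, 385.4 and 106.8 CPM on the dMGE chips. It was lower in vMGE in 3 pairs and level in the pair of chips 98 and 99 (log2 fold change -1.63 ± 0.51, edgeR adjusted p = 0.608, DESeq2 adjusted p = 0.0293). Maf, a factor of interneuron fate, had 212.4, 161, 127.4 and 217.9 CPM on the vMGE chips, against 242.3, 616, 486.1 and 246.1 CPM on the dMGE chips. All 4 vMGE chips were below all 4 dMGE chips, which held for 1.21% of all genes tested, and for 1.57% the vMGE chips were all above. Mef2c, a factor of maturing interneurons, had 34.7, 16.6, 4.29 and 26.4 CPM on the vMGE chips, against 45.03, 63.4, 27.5 and 107.5 CPM on the dMGE chips. Of its counts, 60.1% came from 5 cells.

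These genes are expressed by young neurons, and the neuron range held fewer cells on 3 of the 4 vMGE chips than on their partners. In bulk sums, fewer cells of a kind and less RNA per cell cannot be told apart, so the neuron range is taken alone further on.

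**Figure D2:**
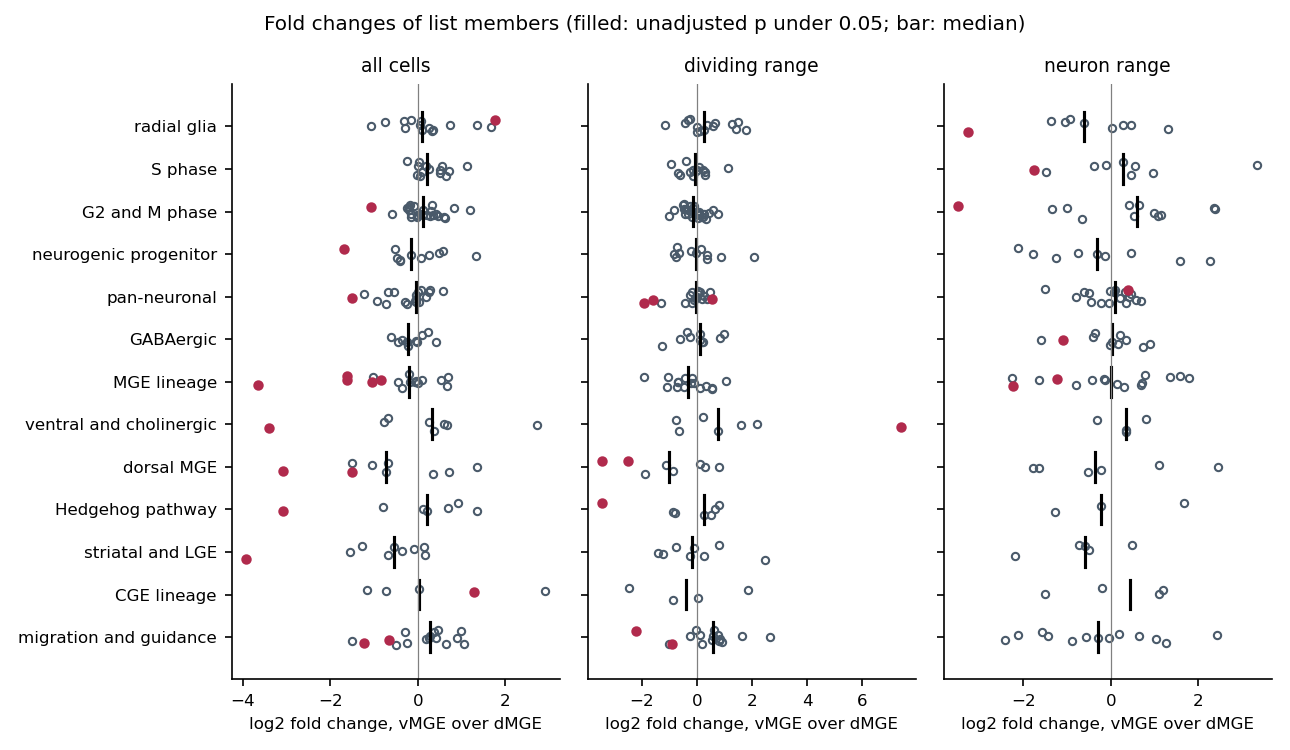
Log2 fold change (vMGE over dMGE) of the tested members of 13 gene lists, in all cells, in the dividing range and in the neuron range. Each point is a gene, filled where the unadjusted edgeR p was under 0.05, and the bar is the list's median. The MGE lineage list has 5 filled points in all cells, all to the left of 0.

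The progenitor and neuronal lists had few members at an unadjusted p under 0.05. Of 14 S phase genes, 12 were above 0 and 2 below, with a median log2 fold change of 0.22 and none at an unadjusted p under 0.05. Of 15 radial glia genes, 10 were above 0 and 5 below, with a median of 0.09. Summed over the list, radial glia genes reached 3855 to 4559 CPM on vMGE chips and 2217 to 3561 CPM on dMGE chips, without overlap. Much of this sum was the cyclin gene Ccnd2, a member of the list. It averaged 2048 ± 567 CPM in vMGE and 1690 ± 570 CPM in dMGE (SD over 4 chips, as scaled in the fit with E12.5 chips described below). Fabp7, a fatty acid binding protein of radial glia, had 125.6, 322.7, 92.3 and 995 CPM on the vMGE chips, against 87.4, 30.6, 81.3 and 150 CPM on the dMGE chips. It was higher in vMGE in 4 of 4 pairs but by little in those of chips 91 and 96 (log2 fold change 1.75 ± 0.55, edgeR adjusted p = 0.608). Of 25 G2 and M phase genes, 14 were positive, and of 19 tested neuronal genes 13 were negative, with medians of 0.12 and -0.05.

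Of 11 GABAergic genes 8 were negative and none had an unadjusted p under 0.05. Gad2, which makes GABA from glutamate, had 516, 457.3, 333.8 and 474.3 CPM on the vMGE chips, against 434.1, 1143, 404.1 and 966 CPM on the dMGE chips. Of 16 migration and guidance genes, 10 were above 0 and 6 below, with a median log2 fold change of 0.27 in all cells, and in dividing cells 11 were above 0 and 5 below, with a median of 0.56. In all cells 2 of the 16 had an unadjusted p under 0.05, against 3.93% of all genes lower at that p, and both were Eph receptors that were lower in vMGE, against the direction of the list. Epha4 had 1151, 1077, 704 and 1493 CPM on the vMGE chips, against 1924, 1629, 1641 and 1552 CPM on the dMGE chips. The chips did not overlap (log2 fold change -0.65 ± 0.20, edgeR p = 0.00787, adjusted p = 0.608). Epha5 had 22.8, 87.01, 60.1 and 51.6 CPM on the vMGE chips, against 59.9, 162, 205.1 and 97.0 CPM on the dMGE chips.

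Several genes with the smallest p of the whole table took most of their counts from few cells. Fgfrl1, a fibroblast growth factor receptor relative, had 46.5, 18.8, 15.4 and 95.9 CPM on the vMGE chips, against 0.901, 0, 1.44 and 2.02 CPM on the dMGE chips, and 84.5% of its counts came from 5 cells. Ksr1, a scaffold of the MAP kinase cascade, drew 90.6% of its counts from 5 cells. Polr3c, a subunit of RNA polymerase III, and Umps, an enzyme of pyrimidine synthesis, were spread more widely. Umps was detected in 51 vMGE cells, against 17 dMGE cells, at 143.8, 55.5, 156.5 and 92.6 CPM on the vMGE chips and 9.19, 16.3, 28.4 and 22.4 CPM on the dMGE chips (log2 fold change 2.47 ± 0.58, edgeR adjusted p = 0.608). In another E14.5 pair outside the 4, vMGE chip 194 and dMGE chip 193, Umps had 142.9 CPM in vMGE and 276.6 CPM in dMGE.

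On the lower side, the zinc finger gene Zfp51, the tight junction gene Usp53 and Ddc, the enzyme that makes dopamine and serotonin, took 80.5% to 87.6% of their counts from 5 cells. Runx1t1, a transcriptional corepressor, had 1044, 803, 297.5 and 381.3 CPM on the vMGE chips, against 1994, 1522, 535 and 585 CPM on the dMGE chips. It was lower in vMGE in 4 of 4 pairs, and both regions were higher on the chips numbered 90 to 93 than on those numbered 96 to 99 (log2 fold change -0.83 ± 0.19, edgeR adjusted p = 0.608). Rgs5, a pericyte gene, had 1998 CPM on dMGE chip 90, where 1 cell gave nearly all of it, and at most 18.7 CPM on any other chip.

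Dividing range cells were tested alone. The median cell of this range had 13 G2 and M phase genes, 5 S phase genes and 3345 detected genes in vMGE. In dMGE it had 10, 4 and 2764. The part of this in the results of the range was not tested. None of 10527 genes passed (0%). At an unadjusted p under 0.05 there were 713 genes, 3.54% of those tested being higher in vMGE and 3.23% lower. In this range 7.23% of all genes tested were higher in vMGE in 4 of 4 pairs and 5.31% were lower. DESeq2 called 2.92% of genes and limma 0. Nr2f1 had 31.3, 5.70, 26.6 and 60.6 CPM on the vMGE chips, against 148.1, 23.7, 156.97 and 434.3 CPM on the dMGE chips. It was lower in vMGE in 4 of 4 pairs, with a log2 fold change of -2.50 ± 0.63 (edgeR p = 0.00209, adjusted p = 0.725, DESeq2 adjusted p = 0.00172). In neurons its log2 fold change was -1.65 ± 1.31, and the change between the ranges was 0.53 ± 1.55 (edgeR p = 0.738). It was detected in 29 dividing vMGE cells (18.5%), against 43 dividing dMGE cells (37.4%). Nr2f2 was detected in 15 dividing vMGE cells (9.55%), against 30 dividing dMGE cells (26.1%). Its CPM were 7.87, 12.1, 9.10 and 253.9 on the vMGE chips, against 60.3, 49.5, 71.2 and 31.1 on the dMGE chips, so the pair of chips 98 and 99 ran against the other 3 pairs.

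Epha4 had 1048, 821, 332.1 and 917 CPM on the vMGE chips in dividing cells, against 1750, 1346, 663 and 2123 CPM on the dMGE chips. Each vMGE chip was below its partner (log2 fold change -0.91 ± 0.24, edgeR p = 0.00242, adjusted p = 0.725). Of the dorsal MGE list 8 genes were tested here, with a median log2 fold change of -1.01, against -0.01 for all genes. Of the ventral and cholinergic list 7 were tested, with a median of 0.76. Lhx8 had 35.3, 9.67, 70.5 and 26.5 CPM on the vMGE chips, against 3.96, 16.5, 7.84 and 0.0557 CPM on the dMGE chips (log2 fold change 2.16 ± 1.10). Etv1, an ETS factor, had 80.3, 25.2, 94.7 and 22.7 CPM on the vMGE chips, against 21.8, 16.3, 34.4 and 2.79 CPM on the dMGE chips (log2 fold change 1.58 ± 0.81). Lhx8 was higher in vMGE in 3 pairs and Etv1 in all 4, neither past the threshold (edgeR adjusted p = 0.745 and 0.749).

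Zic1 had a thinned count in 13 dividing vMGE cells (8.28%), against 0 dividing dMGE cells, with the cells of the chips pooled. By counting error alone, which leaves out how chips vary, a count of 0 allows a share of up to 2.61%. On dMGE chip 193, outside the 4 pairs, 3.85% of dividing cells had a count of Zic1. The level of Zic1 was 7.81, 0.939, 4.52 and 20.7 CPM on the vMGE chips and at most 0.0784 CPM on any dMGE chip of the 4 pairs (edgeR p = 0.0209, adjusted p = 0.725, DESeq2 adjusted p = 0.0220). Actr8, a chromatin remodelling subunit, and Pkn2, a protein kinase, were among the 8 genes higher in vMGE with the smallest p. Pkn2 had 225.1, 360, 236.02 and 285.5 CPM on the vMGE chips, against 20.99, 142.5, 24.1 and 53.3 CPM on the dMGE chips. Cdk19, a kinase of the Mediator complex, was on the lower side at 30.3, 44.6, 12.7 and 7.33 CPM on the vMGE chips, against 222.6, 200, 94.9 and 333.7 CPM on the dMGE chips. Both sets of chips were apart without overlap. Of all genes tested in this range, 1.67% had all vMGE chips above all dMGE chips and 1.02% had them all below. Neither Pkn2 nor Cdk19 passed (edgeR adjusted p = 0.725 for each). In the pair of chips 194 and 193, both ran the other way: Pkn2 had 84.2 CPM in vMGE and 119.6 CPM in dMGE, and Cdk19 29.3 CPM in vMGE and 8.12 CPM in dMGE. Mki67, a marker of cycling cells, had 1274 ± 527 CPM in vMGE and 1735 ± 442.4 CPM in dMGE (SD, n = 4 chips each). Of 16 tested MGE lineage genes, 5 were above 0 and 11 below in dividing cells, with a median log2 fold change of -0.33 and none at an unadjusted p under 0.05. Zeb2 had a log2 fold change of -0.21 ± 0.39, Erbb4 of -1.07 ± 0.98, Maf of -0.69 ± 0.70 and Mef2c of -1.94 ± 1.17.

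**Figure D3:**
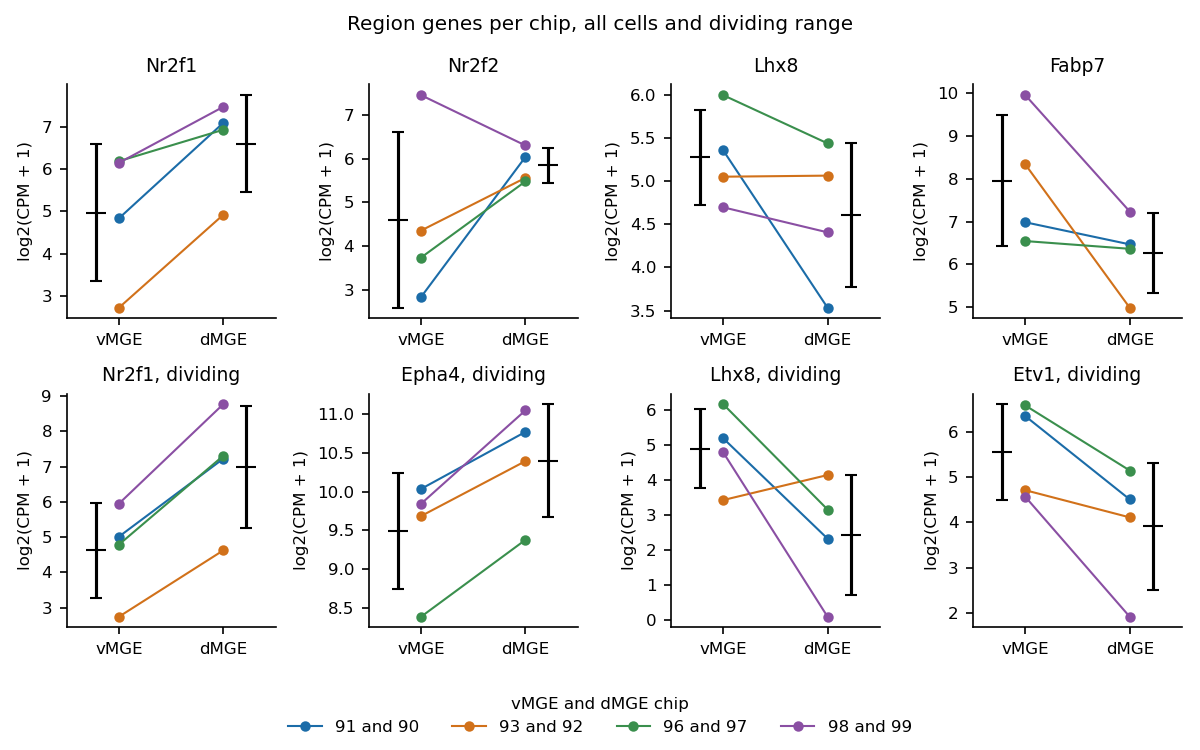
Levels, as log2(CPM + 1), of region genes on vMGE chips (left) and dMGE chips (right), in all cells (top, with Fabp7) and in dividing range cells (bottom, with Epha4). Lines join the chips of a pair and black bars give mean and SD. Nr2f1 is lower in vMGE in every pair in both rows, and Lhx8 is higher in 3 of 4 pairs in the dividing range.

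In neuron range cells, 1 of 7517 genes passed (0.0133%). This was Malat1, an abundant long noncoding RNA kept in the nucleus, which fell in vMGE. It had 14184, 12202, 19860 and 16221 CPM on the vMGE chips, against 20497, 17316, 25424 and 21209 CPM on the dMGE chips. Every vMGE chip was below its partner by a similar ratio, although the ranges overlapped (log2 fold change -0.44 ± 0.06, edgeR adjusted p = 0.00968). The fold change hardly moved under other settings, at -0.40 to -0.52, but the call was lost with DESeq2 (adjusted p = 0.867), with limma (0.961), with thinned cells (0.777), without cells above 5% mitochondrial counts (0.330), without the block (0.373), with stricter ranges (0.787), and without the pair of chips 96 and 97 (0.540) or of 98 and 99 (0.820). Over all cells Malat1 had 8572, 8352, 14755 and 15666 CPM on the vMGE chips, against 15007, 12635, 21304 and 16154 CPM on the dMGE chips (log2 fold change -0.50 ± 0.10, edgeR adjusted p = 0.608).

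In dividing cells it was 0.21 ± 0.17 lower on the log2 scale, with chip 98 above chip 99. Malat1 was lower in the region whose cells had more detected genes, and the part of this in its fall was not tested. The pair of chips 194 and 193 had both in the opposite order: 18719 CPM of Malat1 in vMGE and 15139 CPM in dMGE over all cells, with median thinned cells of 1612 genes in vMGE and 2168.5 genes in dMGE.

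At an unadjusted p under 0.05, 2.98% of genes were higher in vMGE neurons and 3.03% were lower. Of all genes tested in neurons, 5.85% were higher in vMGE in 4 of 4 pairs and 5.72% were lower. DESeq2 called 6.5% of genes and limma 0. The neuron sums rested on 13 to 18 cells per vMGE chip and 14 to 26 cells per dMGE chip. Zeb2 had 165.2, 741, 577 and 516 CPM on the vMGE chips, against 821, 1300, 942 and 1218 CPM on the dMGE chips. The chips did not overlap. Of all genes tested in neurons, 1.2% had all vMGE chips below all dMGE chips and 1.14% had them all above. Zeb2 was detected in 41 of 59 vMGE neurons, against 63 of 78 dMGE neurons (log2 fold change -1.24 ± 0.50, edgeR p = 0.0219, adjusted p = 0.799). Erbb4 had 57.9, 111.3, 4.57 and 389.02 CPM on the vMGE chips, against 180, 763, 603 and 272.1 CPM on the dMGE chips, again with the pair of chips 98 and 99 in the opposite order. Mef2c was detected in 6 of 59 vMGE neurons and in 18 of 78 dMGE neurons. Of the 16 MGE lineage genes tested in neurons, Zeb2 and Erbb4 were the 2 with an unadjusted p under 0.05, 8 were above 0 and 8 below, and the median log2 fold change was 0.01, against 0.03 for all genes.

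Gad2 had 1228, 773, 724 and 323.9 CPM on the vMGE chips, against 1869, 2080, 853 and 1442 CPM on the dMGE chips, lower in vMGE in 4 of 4 pairs (log2 fold change -1.10 ± 0.43, edgeR adjusted p = 0.799). The 11 GABAergic genes had no common direction in neurons, with 6 above 0, 5 below and a median of 0.04. Gad1, the other enzyme that makes GABA, and Dlx6, a homeobox factor, were each higher in vMGE in 3 of 4 pairs (log2 fold changes 0.36 ± 0.50 and 0.89 ± 0.96). Tubb3, a neuronal tubulin used for the range, had 4411, 5493, 5186 and 7401 CPM on the vMGE chips, against 2631, 4772, 3733 and 6694 CPM on the dMGE chips. Lhx6 averaged 1172 ± 637 CPM in vMGE neurons and 1216 ± 705 CPM in dMGE neurons (SD, n = 4 chips each). Lhx8 was detected in 14 of 59 vMGE neurons and 4 of 78 dMGE neurons, while its CPM were 46.2, 70.9, 31.1 and 56.4 on the vMGE chips, against 28.02, 71.1, 193 and 0.0955 on the dMGE chips. Of its counts, 76.9% came from 5 cells, and no order is read from it.

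Nkx2-1, which MGE interneurons bound for the cortex switch off, had 41.03, 211.6, 98.2 and 11.6 CPM on the vMGE chips in neurons, against 224.8, 75.1, 923 and 290 CPM on the dMGE chips (log2 fold change -2.26 ± 1.12, edgeR adjusted p = 0.806). Other genes at the head of the neuron comparison came from few cells, such as the calcineurin homologue Chp1, higher in vMGE, and the mitochondrial translation gene Ptcd3, lower in vMGE, with 90.7% and 92.4% of their counts from 5 cells. Xist, the RNA of the inactive X chromosome, had 102.1, 335.7, 52.2 and 1.73 CPM on the vMGE chips in neurons, against 449.01, 1326, 350 and 316.6 CPM on the dMGE chips. Over all cells, 24, 24, 12 and 17 cells of the vMGE chips and 33, 46, 8 and 11 cells of the dMGE chips had at least 3 thinned counts of Xist. For the sum of 4 genes of the Y chromosome, this held for 31, 37, 25 and 29 cells of the vMGE chips, against 22, 12, 22 and 18 cells of the dMGE chips. Cells with Xist and cells with Y-linked counts were thus found on every chip in differing proportions, and the part of this in other genes was not tested.

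**Figure D4:**
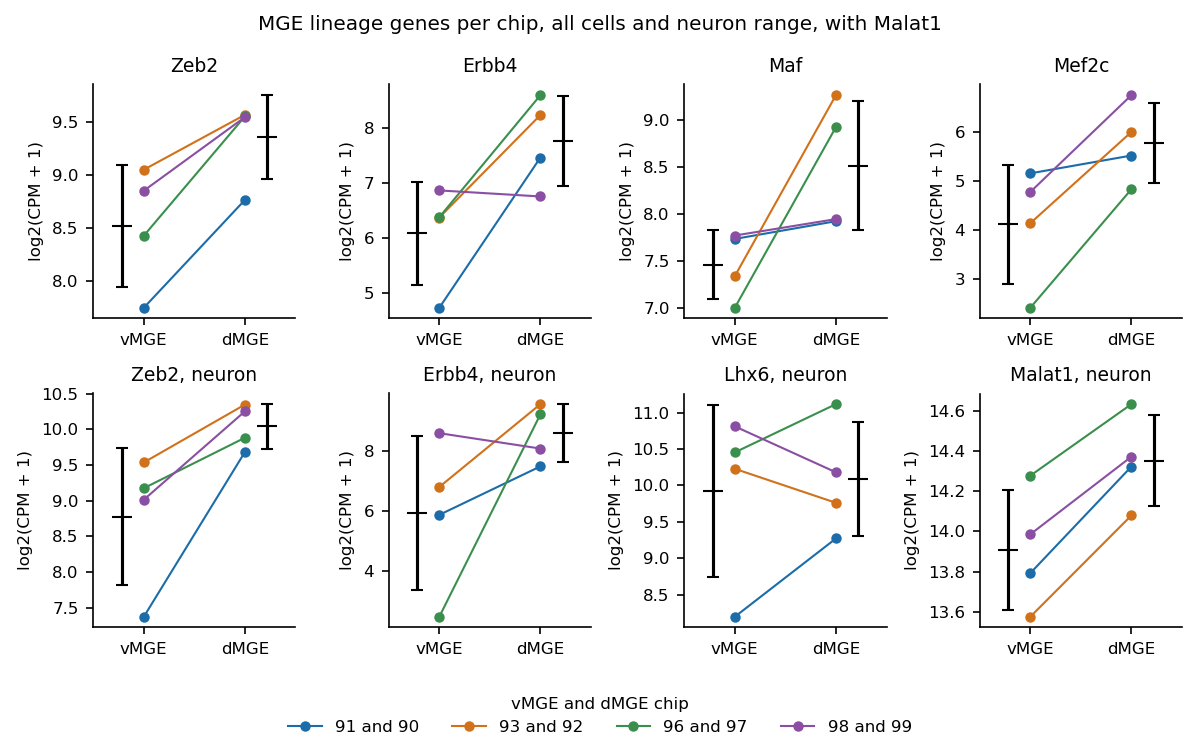
Levels, as log2(CPM + 1), of MGE lineage genes and Malat1 on vMGE chips (left) and dMGE chips (right), in all cells (top) and in neuron range cells (bottom, with Lhx6 and Malat1). Lines join the chips of a pair and black bars give mean and SD. Zeb2 and Malat1 are lower in vMGE in every pair, and Lhx6 has no common direction.

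Whether the region difference itself changed between dividing cells and neurons was fitted in 1 model over both ranges. None of 11391 genes passed (0%), 646 had an unadjusted p under 0.05 (5.67%), DESeq2 called 4.87% and limma 0. Zeb2 was lower in vMGE by 1.06 ± 0.59 more in neurons than in dividing cells on the log2 scale (edgeR p = 0.0914, adjusted p = 0.873). The difference for Epha4 was 1.12 ± 0.47 (p = 0.0304, adjusted p = 0.871) and for Nkx2-1 -2.55 ± 1.14 (p = 0.0388, adjusted p = 0.871). The smallest p belonged to Ccdc91 and Lrpap1, and Ptcd3 was also among the first 6. Lrpap1, a chaperone of lipoprotein receptors, averaged 77.4 CPM in dividing vMGE cells and 15.8 CPM in dividing dMGE cells, and 16.05 CPM in vMGE neurons and 176 CPM in dMGE neurons. It did not pass (adjusted p = 0.871).

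The same regions at E12.5 were taken from 926 cells on 7 vMGE and 6 dMGE chips in 6 pairs, 2 vMGE chips of 1 pair being averaged. The E14.5 pairs compared were on chips numbered 90 to 99 and the E12.5 pairs on chips numbered 170 to 196. Age and chip series thus cannot be told apart from these pairs. Another E14.5 pair, vMGE chip 194 and dMGE chip 193, had numbers within the E12.5 range but was not part of the tests with age. Nr2f1 was detected in 54.1% ± 24.5 of vMGE cells and 77.6% ± 22.4 of dMGE cells at E12.5 (SD over 6 pairs), lower in vMGE in 6 of 6. Lhx8 was detected in 46.8% ± 21.9 of vMGE cells and 22.9% ± 16.04 of dMGE cells, higher in vMGE in 6 of 6. Nr2f2 was lower in vMGE in 5 of 6 pairs and Nkx2-1 higher in 5 of 6. At that age the median thinned cell had 2178 genes in vMGE and 2202 in dMGE, with 3 pairs either way. The change of the region difference with age was not past the threshold for any of 8 shares (exact permutation of the pair differences, adjusted p = 0.21 to 1).

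Sst, the somatostatin gene, showed the smallest of these p. It was detected in 0% of vMGE cells and in 2 dMGE cells (0.755%) at E14.5, both on chip 99. By counting error alone over pooled cells, which leaves out how chips vary, 0% allows Sst a share of up to 1.04% in vMGE. At E12.5 it was detected in 0.781% ± 1.26 of vMGE cells and 9.79% ± 7.71 of dMGE cells, and the region difference changed by 8.14 percentage points with age (exact permutation p = 0.0429, adjusted p = 0.21). Across all genes, 0 of 15080 passed the threshold for a change of the region effect between the 2 ages (0%). At an unadjusted p under 0.05 there were 634 genes (4.2%), while DESeq2 called 1.72% and limma 0. Nr2f1 averaged 43.3 CPM in vMGE and 117.3 CPM in dMGE at E14.5, against 161 CPM in vMGE and 396.2 CPM in dMGE at E12.5 in that fit (difference of log2 fold changes -0.35 ± 0.61, edgeR adjusted p = 1). Ddc was among the 6 genes with the smallest p: it averaged 0.977 CPM in vMGE and 36.6 CPM in dMGE at E14.5, and 14.52 CPM in vMGE and 2.85 CPM in dMGE at E12.5 (adjusted p = 0.49).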

How the data were processed

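Single cells were captured on Fluidigm C1 chips, 1 chip per region, reverse transcribed with Smart-seq v4 after poly-A capture and made into Nextera libraries, per the labels' protocols. The authors aligned and counted reads with STAR 2.4.0 and HTSeq 0.6.1 on build mm9, naming CASAVA, FastQC and SAMtools beside them, per the submitters' processing notes. The deposited table holds raw read counts per gene and cell without molecular identifiers. A deposited RPKM table was not used. Names came from identifiers matched to GENCODE vM21 (32620 of 37310 genes). Each cell had its own library. No doublet caller was run.

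The chip was the replicate, with 289 vMGE and 265 dMGE cells in all, 157 and 115 in the dividing range and 59 and 78 in the neuron range. Counts were summed per chip over all cells, or over a range with at least 10 cells, at 28145271 to 58708377 counts per chip over all cells. They were fitted with edgeR 4.0.16 (quasi-likelihood, TMM, filterByExpr, pair as block), with DESeq2 1.42.0 and limma 3.58.1 on log2(mean CPM per cell + 1) as alternatives. Standard errors come from the log2 fold change and its F statistic. Shares used cells thinned to 50000 counts, with exact permutation tests in Python 3.11.15. Intervals and the limit for a count of 0 (3 cells) cover counting error only. Fits were tested on simulated counts. Dixon's ratio (critical value 0.829) was computed for 208 groups of 4 chips.

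Named genes were the 8 each way with the smallest p per comparison among those with 1 sign in 4 pairs and a mean of 20 CPM in either region, without predicted genes. They were joined by up to 4 members per list by p, all tested dorsal and ventral genes, and Nkx2-1. Only some are printed. Values of Nr2f2, Lhx6, Lhx8 and Malat1 in a range, of a further pair and of shares at E12.5 were chosen after values had been seen. The chips, members and the 21 gene lists were chosen with earlier results of these data known. Alternatives were other tools and scaling, no filter, thinning, stricter cells, no cells above 5% mitochondrial counts, no block, a further pair, stricter ranges and leaving out each pair.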

Additional observations from a re-analysis of the deposited data

Results flagged for a closer look

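A chip stood apart from the other 3 of its region in 17 of the groups of 4 chips examined, by a gap to the next chip above Dixon's 95% critical share of the range. Chance alone flags about 1 in 20 groups. Gene levels and list sums were examined on a log2(CPM + 1) scale.

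Among the vMGE chips, chip 98 stood apart most often. Lhx6 had 1081 CPM there over all cells, against 529 to 562 CPM on the other vMGE chips. Tcf7l2 had 3.79 CPM, against 36.04 to 40.1 CPM on the others, and Nr2f2 in dividing cells had 253.9 CPM, against 7.87 to 12.1 CPM. The same chip had summed S phase genes of 2133 CPM, against 4780 to 5260 CPM, and a median of 671656 counts per cell, against 511687 to 521258. Its partner, dMGE chip 99, had a median of 950153 counts per cell, against 394224 to 442098 on the other dMGE chips. Chip 99 also had 1.89 CPM of Zfp51 in dividing cells, against 124.4 to 200 CPM, and 0.0557 CPM of Erbb4 in dividing cells, against 67.2 to 139.2 CPM. Its 3.45% of cells with an Sst count stood against 0% on the other dMGE chips.

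On dMGE chip 90, Zeb2 had 433.6 CPM, against 745 to 756 CPM on the other dMGE chips, Zic1 had 4.71 CPM, against 0 to 0.201 CPM, and summed G2 and M phase genes had 11585 CPM, against 8177 to 8377 CPM. On vMGE chip 91 summed neurogenic progenitor genes had 1238 CPM, against 821 to 872 CPM. Actr8 in dividing cells had 35.02 CPM on vMGE chip 96, against 73.1 to 77.03 CPM. dMGE chip 97 had a median mitochondrial share of 5.64%, against 2.66% to 3.05%. Summed pallial excitatory genes had 6.36 CPM on vMGE chip 93, against 0.0506 to 0.423 CPM, and 134.8 CPM on dMGE chip 97, against 0.0976 to 0.568 CPM.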

How the results depend on the processing

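DESeq2's Wald test called 2.69% of genes in all cells, 2.92% in dividing cells, 6.5% in neurons, 4.87% for the change between ranges and 1.72% for the change with age, where edgeR called 0 genes in each but 1 in neurons. The cause was not tested. The single call in neurons became 0 with limma, with thinning, without cells above 5% mitochondrial counts (3 pairs), without the replicate block and with 2 more markers asked (2 pairs), and 0% to 0.0254% of genes when each pair was left out. Removing the replicate block left 0 calls in all cells and dividing cells. Chips of a pair deviated together by 0.169, 0.0691, 0.0492 and 0.0983 (correlation over 6993 genes of at least 20 CPM). Chip 93 correlated more with chip 90 (0.1001) than with its partner, and chip 96 more with chip 99 (0.0558) than with its partner. All values of chips of a pair were above 0, while chips of other pairs ran from -0.136 to 0.1001. The values overlapped and their difference was not tested, so the numbers alone do not establish the pairing. The pair of chips 194 and 193 could not be fitted in neurons, where chip 194 had 7 cells.

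Among the single genes and shares, only Malat1 in neurons was called at first, so for the others keeping the call meant staying uncalled. With DESeq2, 45 of 71 values kept direction and call. Of 988 alternative values of single genes and shares in all, 935 kept direction and call and 25 passed only with DESeq2. The call was lost in 8 values of Malat1 in neurons, and 20 values changed sign. In all cells Nkx2-1 became 0.054 with limma and 0.011 thinned (-0.55 to 0.011 without each pair), and Lhx6 0.10 without mitochondria-rich cells (-0.31 to 0.25 without each pair). In dividing cells Nr2f2 became 0.44 without the block and Erbb4 0.15 with limma; without each pair Malat1 ran from -0.47 to 0.041 and Zeb2 from -0.34 to 0.014. In neurons Lhx6 became 0.27 without mitochondria-rich cells and 0.96 with stricter markers (-0.42 to 0.14 without each pair), and Lhx8 -0.84 thinned and -0.43 without the block (-0.70 to 1.59 without each pair). The Lhx6 share difference became 2.77 percentage points unthinned and ran from -8.33 to 2.78 without each pair.

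With 4 pairs the exact test cannot pass the threshold, and neuron sums rest on 13 to 26 cells per chip.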

Other observations

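A further E14.5 pair, vMGE chip 194 and dMGE chip 193, entered the fits only as an alternative. Its CPM are not scaled between chips. The genes of smallest p in the 4 pairs, 8 on each side, often had the opposite order there. Of the 8 higher in vMGE, 2 were higher in this pair over all cells and 2 in dividing cells, and of the 8 lower in vMGE, 4 were lower over all cells and 4 in dividing cells. Fgfrl1 had 0.0460 CPM in vMGE and 15.2 CPM in dMGE, and Actr8 in dividing cells 85.2 CPM in vMGE and 172.2 CPM in dMGE. In its dividing range, of 50 vMGE and 52 dMGE cells, Lhx8 was detected in 64% of vMGE cells and 25% of dMGE cells, and Nr2f1 in 28% of vMGE cells and 73.1% of dMGE cells. Zic1 was detected in 18% of those vMGE cells and 3.85% of the dMGE cells. Over all cells of the pair, Zeb2 had 177.7 CPM in vMGE and 263.7 CPM in dMGE, Erbb4 58.04 CPM in vMGE and 81.7 CPM in dMGE, and Fabp7 228.1 CPM in vMGE and 39.9 CPM in dMGE. The share of cells with an Nkx2-1 count was 55.7% in vMGE and 56.1% in dMGE. Runx1t1 had 228.01 CPM in vMGE and 186 CPM in dMGE, opposite to the 4 pairs. Hbb-bt had 347.2 CPM in vMGE and 0.223 CPM in dMGE.

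Immediate early and dissociation genes set 1 pair apart from the rest. Summed over the list they reached 1532 CPM on vMGE chip 91 and 1781 CPM on dMGE chip 90, and 42.9 to 175 CPM on the other 6 chips. The sum was lower in vMGE in every pair. Chips 93, 96 and 98 had 42.9, 82.7 and 45.1 CPM, against 97.4, 114.99 and 174.6 CPM on chips 92, 97 and 99. Of the list's 6 tested genes, 3 had a log2 fold change above 0 and 3 below. Fos, a gene switched on within minutes of stimulation, had 811 CPM on chip 91 and 999 CPM on chip 90, and at most 1.78 CPM on any other chip. Prox1, a factor of caudal interneurons, had 130, 35.8, 112.4 and 48.96 CPM on the vMGE chips, against 62.9, 23.98, 28.1 and 18.4 CPM on the dMGE chips (log2 fold change 1.28 ± 0.55, edgeR adjusted p = 0.619). The list of caudal lineage genes had no common direction: of 5 tested, 3 were above 0 and 2 below, with a median log2 fold change of 0.03. In the pair of chips 194 and 193, Prox1 ran the other way, at 36.5 CPM in vMGE and 46.2 CPM in dMGE over all cells.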
